A study of Drosophila melanogaster with 4 samples.

Results

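Tightly packed short H3K9ac regions are places on the fly chromosomes where several marked stretches follow each other at short distances. The base-by-base intersection of the 2 ChIP replicate lists gave 6230 shared stretches, sequence marked in both libraries, of which 6134 lay on the 5 large chromosome arms (X, 2L, 2R, 3L and 3R). A shared stretch was counted as tightly packed when it was under 5000 bp long and when the gaps to the previous and to the next shared stretch, of any length, were both 3000 bp or less. This rule found 923 members among 5563 shared stretches under 5000 bp, or 16.6%. They were set against the other 4640 short stretches. Members were thus chosen by the measured positions of regions in both lists, and lengths and scores come from the same lists, so every value that follows is a description and no test was made.

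The study mapped H3K9ac, histone H3 acetylated at lysine 9, by ChIP-seq in whole larvae of the third instar from the wild-type strain Oregon-R (Oregon-R-modENCODE) of Drosophila melanogaster. All samples share this strain, genotype and stage, and no treatment is named. The groups are 2 immunoprecipitated (ChIP) libraries and 2 input libraries of unenriched chromatin. There were 3 lists of enriched regions, 1 per ChIP library and 1 for the replicate set, and the input libraries enter only through the authors' calling. Whole larvae hold many tissues, so more cells with the mark and more mark per cell cannot be told apart, and neighbouring stretches may be marked in different cells. Whether the 2 ChIP libraries stem from separate batches of larvae is not stated, so their spread may be technical.

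H3K9ac is placed by histone acetyltransferases such as Gcn5, the catalytic subunit of SAGA-type complexes, and is removed by histone deacetylases. In flies, as in other animals, it is found mainly around the start sites and the first part of active genes, and acetylated tails are bound by proteins with bromodomains. The fly genome is compact, and neighbouring active genes, often in divergent pairs, can lie a short distance apart. The files name no genes and their positions follow FlyBase release 5, for which no annotation was used here, so the stretches are given by position and not by gene.

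The lists held 6433 regions of replicate 1 and 7533 of replicate 2 on the large arms, with median lengths of 2558 and 2323 bp. The shortest region in either list was 1301 bp long. Each region carries a score given by the authors, which behaves as a log2 value, with a denominator that is not stated. Read depth is unknown, since the files give no counts.

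Close spacing was common among the shared stretches. On the large arms the median gap between neighbours was 4701 bp. Of the short stretches, 2482 had 1 neighbour within 3000 bp and 2158 had 0, beside the 923 members with a neighbour on each side. Stretches linked by such gaps formed 603 chains of 3 or more, with 1035 stretches inside the chains. Of these inner stretches 89.2% were under 5000 bp and are the members, and 112 were longer. Among all 6134 shared stretches on the large arms 5563 were under 5000 bp, a similar share. The largest chain held 9 stretches.

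Members occurred mostly alone or in pairs inside a chain. A run is a series of members with no other stretch between them, and the 923 members formed 570 runs. There were 349 runs of 1 member, 136 of 2, 54 of 3, 20 of 4, 7 of 5, 3 of 6 and 1 of 7. The 85 runs of 3 or more held 302 members, or 32.7% of all. The rule applied to 1 library gave 73 such runs in replicate 1 and 135 in replicate 2. The 85 runs of shared stretches spanned 3017 to 24149 bp, with a median of 10600 bp, and a median of 75.5% of the span was covered by the members themselves. A stretch of 5000 bp or more stood directly beside 154 runs, on 1 side of 138 and on both sides of 16. The other 416 runs were flanked by short stretches on both sides. Of all 6134 shared stretches on the large arms 571 were of 5000 bp or more, and each run has 2 flanking stretches.

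The gaps were of 2 kinds. A gap between shared stretches has no base marked in both libraries, but a single region of 1 library may still cross it from end to end. Such a gap is called spanned here, and a gap is called broken when neither replicate has a region across all of it, even if part of it is marked in 1 library. Of the 1493 gaps beside members, 273 (18.3%) were spanned in replicate 1, 196 (13.1%) in replicate 2, and 1024 (68.6%) were broken in both. Among the 915 gaps of up to 3000 bp with no member beside them, 71.1% were broken, a similar share.

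Short gaps were mostly spanned and long ones mostly broken. Of the 450 gaps of up to 500 bp beside members, 28.2% were broken in both replicates, and of the 169 gaps of 2501 to 3000 bp, 99.4% were. The median length was 303 bp for gaps spanned in replicate 1, 242.5 bp for gaps spanned in replicate 2 and 1471.5 bp for broken gaps. Across broken gaps the centres of neighbouring stretches were a median of 4286.5 bp apart, with quartiles of 3459 and 5093 bp.

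**Figure D1:**
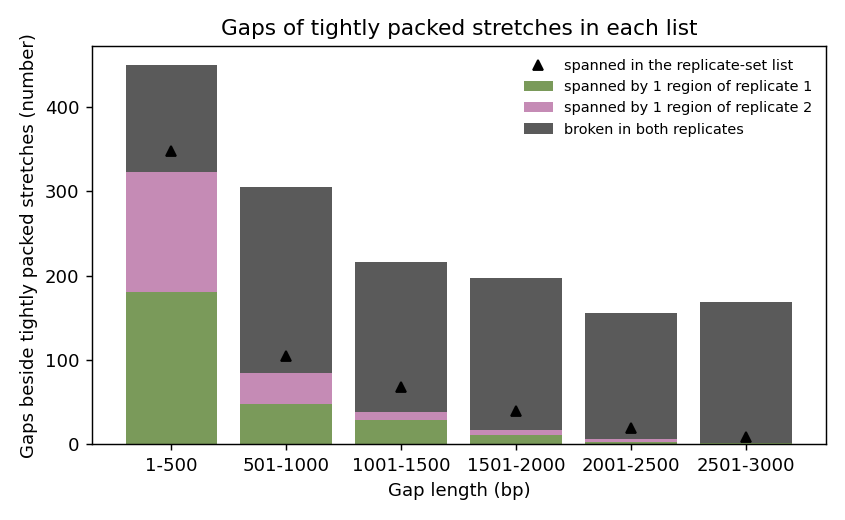
Number of gaps beside tightly packed stretches (vertical axis) by gap length in bp (horizontal axis). Colours show whether 1 region of replicate 1 or of replicate 2 spans the gap or whether it is broken in both, and triangles show how many gaps the replicate-set list spans; of the gaps of up to 500 bp, 127 of 450 were broken in both replicates.

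Both gaps were broken in both libraries for 479 members (51.9%), which are therefore separate stretches in each replicate. The other 444 (48.1%) had at least 1 spanned gap, so they shared a region with a neighbouring stretch in at least 1 library. In 208 of these only replicate 1 spanned a gap, in 123 only replicate 2 did, and 113 had 1 gap spanned in each. Counted another way, 321 members shared their replicate 1 region with another stretch and 236 shared their replicate 2 region. Members that share a region also share its score there and are not independent measurements.

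The rule was also applied to each replicate list alone. Replicate 1 alone held 904 tightly packed short regions, 16.1% of its 5609 short regions on the large arms, and replicate 2 alone held 1305, 19.3% of 6776. Of the 923 members, 548 (59.4%) overlapped a tightly packed short region in both lists. Another 121 did so in replicate 1 only, 199 in replicate 2 only, and 55 in neither. Between the lists, 547 of the 904 regions in replicate 1 (60.5%) overlapped a tightly packed region of replicate 2, and 554 of the 1305 in replicate 2 (42.5%) overlapped one of replicate 1. Members are cut from both lists, so each overlaps some region in either list. The matching shares for other short stretches and regions were not computed, so these overlaps do not show how far packing repeats between replicates.

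The list of the replicate set joined mainly stretches that 1 replicate list already joined. It comes from the same libraries and is no independent evidence. It overlapped 922 of the 923 members. It covered 98.5% of the gaps spanned in replicate 1 and 93.9% of those spanned in replicate 2 from end to end, but 13.2% of the gaps broken in both. A median of 37.5% of the length of a broken gap beside a member was covered in this list. In all, 488 members (52.9%) lay in a replicate-set region of 5000 bp or more, against 1133 of the other short stretches (24.4%), and 122 replicate-set regions held 2 to 4 members each.

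In length, members and the other short stretches differed mainly at the lowest end. The median was 2301 bp for members (quartiles 1703 and 3179 bp), against 2282 bp for the other short stretches (1781 and 3117 bp). This difference of 19 bp had no stable direction: it was 142 bp in replicate 1 alone and 146 bp in replicate 2 alone, and -11 bp with a gap limit of 2000 bp. Under 500 bp there were 77 members (8.34%) and 120 others (2.59%). These pieces are shorter than any region in either list, and the smallest member was 2 bp long. A gap spanned in 1 replicate lay beside 76 of the 77. Members with both gaps broken were longer, with a median of 2462 bp, against 2231.5 bp for short stretches with 0 near neighbours. Of these members 1 was under 500 bp.

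**Figure D2:**
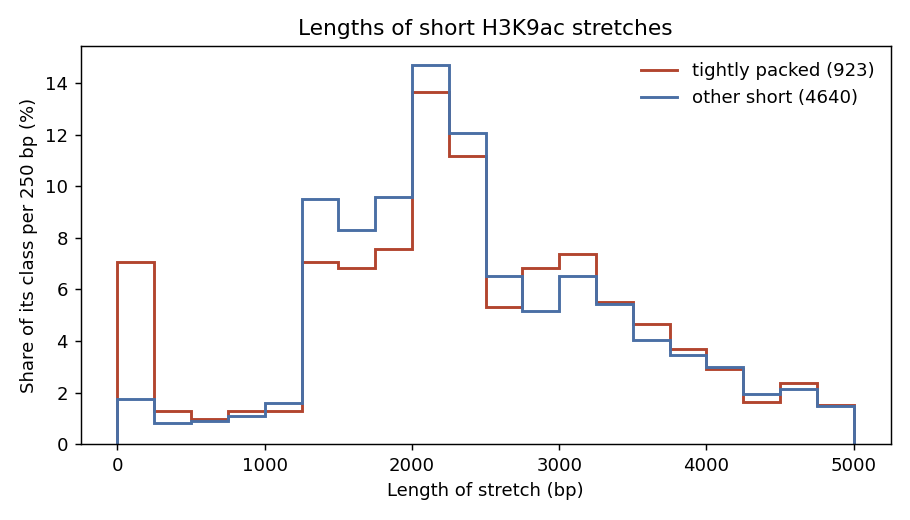
Share of each class (vertical axis, percent per 250 bp) by length of the shared stretch in bp (horizontal axis), for the 923 tightly packed stretches and the 4640 other short stretches. The curves run close together above 500 bp, while 8.34% of the tightly packed and 2.59% of the others lie below it.

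Scores of the members were slightly higher than those of the other short stretches in both libraries. The median score was 0.84 in replicate 1 and 0.79 in replicate 2 for members, against 0.78 and 0.72 for the other short stretches. As means of the 2 medians this is 0.81 ± 0.03 for members and 0.75 ± 0.04 for the others (SD, n = 2). The difference was 0.055 in replicate 1 and 0.066 in replicate 2, which is small beside the spread of the stretches. With the rule applied to each replicate list alone it was 0.045 in replicate 1 and 0.0092 in replicate 2. In the replicate-set list alone the direction was reversed, with medians of 0.387 for tightly packed and 0.406 for other short regions. The middle 50% of the members reached from 0.57 to 1.19 in replicate 1 and from 0.58 to 1.18 in replicate 2.

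The excess lay in fewer low scores and in more scores from 1 to 1.5, rather than in more of the highest. Scores up to 0.5 were found for 11.4% of members and 16.2% of the others in replicate 1, and for 10.9% of members and 16.7% of the others in replicate 2. Above 1 and up to 1.5 lay 30.2% of members and 26.1% of the others in replicate 1. In replicate 2 these shares were 27.8% of members and 23.1% of the others. Scores above 1.5 were found for 9.10% of members and 9.94% of the others in replicate 1, and for 8.56% of members and 8.13% of the others in replicate 2. The highest score was 2.39 for members and 2.62 for the others in replicate 1, and 2.10 for members and 2.52 for the others in replicate 2.

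Scores were higher with more near neighbours over all lengths. The medians for 2, 1 and 0 neighbours within 3000 bp were 0.84, 0.81 and 0.75 in replicate 1 and 0.79, 0.75 and 0.71 in replicate 2. Longer stretches score higher in these lists, so the classes were also compared at like length. Weighted by the lengths of the members, the length-matched difference from the other short stretches was 0.010 in replicate 1 and 0.042 in replicate 2. With the rule applied to a single list it came to 0.0046 for replicate 1 and 0.0011 for replicate 2, and without pieces under 500 bp it was 0.0016 in replicate 1 and 0.038 in replicate 2. From 2000 to under 2500 bp, for example, the medians were 0.87 and 0.80 for 229 members, against 0.87 and 0.78 for 1241 others, in replicates 1 and 2. From 4000 to under 5000 bp members were lower in replicate 1, with a median of 1.15 against 1.23 for the others, and nearly equal in replicate 2, with 1.16 against 1.15 for the others.

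The 2 kinds of members differed in score. The 479 members with both gaps broken had median scores of 1.00 in replicate 1 and 0.94 in replicate 2, and the 444 with a spanned gap had medians of 0.71 and 0.67. The kinds also differ in length, with medians of 2462 and 2065 bp, and 76 of the 77 pieces under 500 bp are in the second. At matched length, members with both gaps broken were higher than those with a spanned gap by 0.13 in replicate 1 and 0.17 in replicate 2, although 4 of 8 length classes were below 0 in replicate 1 and 3 in replicate 2. Against the other short stretches the length-matched difference was 0.052 in replicate 1, where 5 of 8 length classes were below 0, and 0.089 in replicate 2, where 1 of 8 was. The other short stretches were not filtered for spanned gaps, so the 2 sides were selected unlike. This difference was largest in the class from 2500 to under 3000 bp, where 70 members with both gaps broken had medians of 1.24 and 1.17, against 1.07 and 0.98 for the 542 other short stretches. From 1500 to under 2000 bp, 59 members with both gaps broken had medians of 0.51 and 0.55, against 0.52 and 0.51 for 829 others.

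When stretches that share a region were joined before the rule was applied, 490 members and 28 runs of 3 or more were found in place of 923 and 85. The median score of those members was 0.99 in replicate 1 and 0.92 in replicate 2, against 0.78 and 0.73 for the other short stretches. Their median length was 2506 bp, against 2327 bp for the other short stretches. At matched length the score difference was smaller, 0.044 in replicate 1 and 0.088 in replicate 2. Of the 85 runs of 3 or more, 20 had every gap broken in both replicates.

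**Figure D3:**
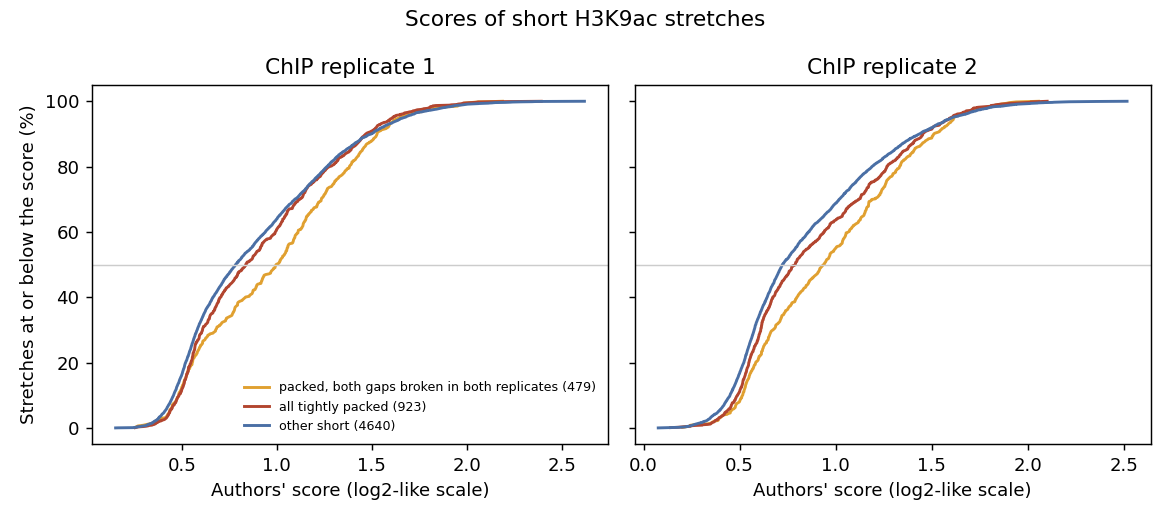
Cumulative share of stretches (vertical axis, percent) at or below each score given by the authors (horizontal axis, log2-like scale) in ChIP replicates 1 and 2. Tightly packed stretches lie slightly to the right of the other short stretches, with medians of 0.84 and 0.79 against 0.78 and 0.72, and those with both gaps broken in both replicates lie farther right, with medians of 1.00 and 0.94.

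The replicates differed more in score at members than at the other short stretches. The score of replicate 1 minus that of replicate 2 was 0.019 ± 0.24 (SD over 923 members) and 0.043 ± 0.19 (SD over 4640 others). With a spanned gap the SD was 0.31, and with both gaps broken it was 0.16, near the 0.17 of short stretches with 0 near neighbours. Region ends were compared for stretches with a region of their own in each replicate. For the 479 members with both gaps broken the region ends of the 2 replicates lay a median of 84 bp apart, and 76.0% were within 200 bp, against 116 bp and 64.8% for 2157 short stretches with 0 near neighbours. Part of this difference may follow from the selection, which was not tested. Broken gaps of up to 3000 bp limit how far region ends can differ, and the limit is looser with 0 near neighbours. Median region lengths also differed, with 2660 and 2690 bp at these members against 2448 and 2382 bp in replicates 1 and 2.

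Neighbouring members had only loosely similar scores. Over 231 pairs of members across a broken gap, the score of 1 correlated with that of the next with Pearson's r = 0.21 in replicate 1 and 0.28 in replicate 2. Pairs of short stretches with a gap over 3000 and up to 6000 bp gave 0.24 and 0.25 over 814 pairs, and at over 12000 and up to 30000 bp the values were 0.13 and 0.11 over 787 pairs. These are descriptions across pairs that share a library, and a stretch can be in 2 pairs. The median score difference over the 231 pairs of members was 0.35 in replicate 1 and 0.26 in replicate 2. For the short stretches over 3000 and up to 6000 bp apart it was 0.30 and 0.27, and over 12000 and up to 30000 bp it was 0.32 and 0.31. Strong and weak stretches thus stood side by side among members much as among other short neighbours.

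The longest run held 7 members on 3L from 2533200 to 2551784, a span of 18585 bp of which 59.1% was covered. It was weak throughout, below the median of all members in both libraries. Scores of its members ran from 0.43 to 0.64 in replicate 1 and from 0.49 to 0.71 in replicate 2. Their lengths were 2748, 18, 1202, 1332, 2262, 2022 and 1399 bp in order. The 18 bp piece, from 2536303 to 2536320, lay between a gap spanned in replicate 2 and one spanned in replicate 1. The run rests on 5 regions of replicate 1, 6 of replicate 2 and 4 of the replicate set.

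The next 3 runs had 6 members each and lay on 3R. The run from 22740755 to 22759753 began with the longest member found anywhere, 4993 bp with scores of 1.04 and 1.00 in replicates 1 and 2, and its other 5 members scored 0.52 to 0.57 in replicate 1 and 0.39 to 0.63 in replicate 2. In the run from 5581548 to 5600440, 82.6% of the span was covered. Members 2, 3 and 4 scored 1.35, 1.34 and 1.43 in replicate 1 and 1.25, 1.37 and 1.24 in replicate 2, while the last scored 0.71 and 0.53. Inner gaps in this run were between 257 and 1041 bp, and 4 of the 5 were broken in both replicates.

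In the run from 6692721 to 6708700 the first member was the strongest, with 1.63 in replicate 1 and 1.33 in replicate 2. Member 3, 894 bp long, was the weakest, with 0.43 and 0.56. Member 5 was a 58 bp piece between 2 spanned gaps.

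Unlike these 4 runs, run 5 had each of its gaps broken in both replicates. Its 5 members lay on 2R from 2539869 to 2564017, the widest span of any run at 24149 bp, and each had its own region in all 3 lists. The members were 2242, 3719, 4526, 2999 and 4783 bp long. Their scores in order were 0.98, 1.14, 1.74, 1.28 and 1.11 in replicate 1 and 1.23, 1.03, 1.68, 1.24 and 1.15 in replicate 2. The middle member was the highest in both libraries.

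**Figure D4:**
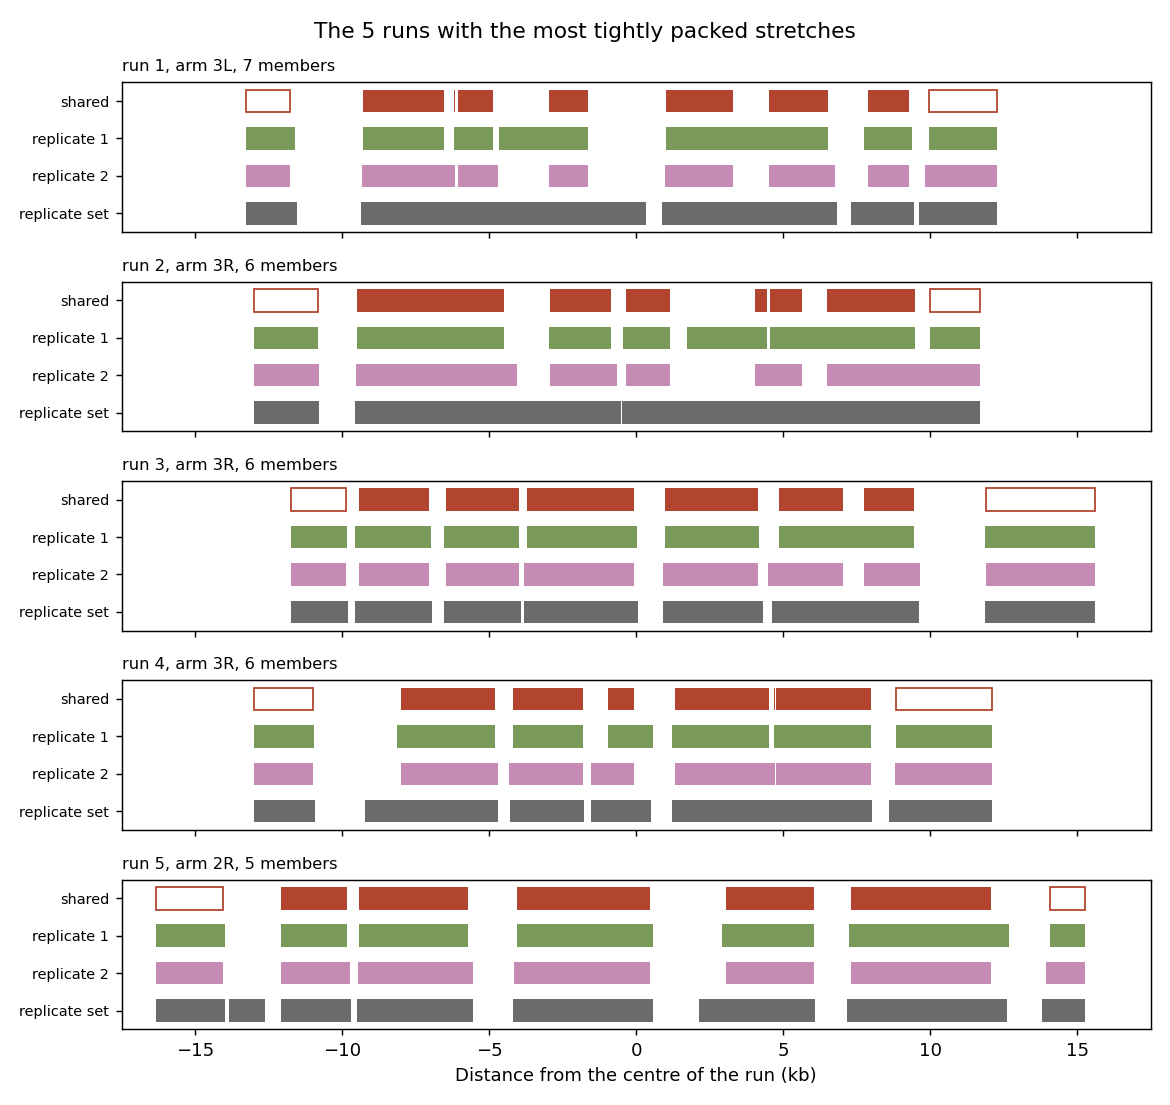
Maps of the 5 runs with the most members, with distance from the centre of each run in kb (horizontal axis) and 1 row per list. Filled bars in the top row are the members, open bars are the flanking shared stretches, and the rows below show the regions of replicate 1, replicate 2 and the replicate set; in run 5 all 5 members have a region of their own in each list.

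Every gap was broken in 20 runs of 3 or more members, with 66 members in all: 8 runs on 3R, 4 on 2L, 4 on 2R, 3 on 3L and 1 on X. They spanned 8031 to 24149 bp. The median over these runs of their median score was 1.14 in replicate 1 and 1.09 in replicate 2. After the run on 2R, the widest was on 3R from 11175425 to 11194150. Its 4 members scored 1.10, 1.59, 1.56 and 1.11 in replicate 1 and 0.88, 1.63, 1.32 and 1.07 in replicate 2, so that the inner pair was higher than the outer pair in both.

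Another run of 4, on 3R from 470062 to 487664, showed the contrast between neighbours. Member 2 scored 1.84 in replicate 1 and 1.71 in replicate 2, and member 3, 2774 bp away, scored 0.60 and 0.44. On 3R from 1041725 to 1053366 the first of 4 members scored 0.62 and 0.88, and the other 3 scored 1.14 to 1.59 in replicate 1 and 1.29 to 1.57 in replicate 2.

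The highest-scoring member was on X from 6187461 to 6191119, with 2.39 in replicate 1 and 2.10 in replicate 2 (mean 2.25 ± 0.20, SD, n = 2). It lay 18 bp from a broad stretch of 7366 bp, and in replicate 2 a single region spanned that gap. The next was on 3R from 10714416 to 10718008, with 2.05 and 2.02, and a gap of 183 bp to a 12 bp piece was spanned in replicate 2. A member on 2L lay from 10407468 to 10410397, with 1.98 and 2.06, and both its gaps were broken. Its neighbours were much weaker, at 0.76 and 0.94 in replicate 1 and 0.58 and 1.17 in replicate 2.

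On X from 16211627 to 16215181 a member scored 2.19 and 1.85. It belonged to a run of 4, with neighbours at 1.38 and 1.45 in replicate 1 and 1.27 and 1.44 in replicate 2. Another, on 2R from 4792501 to 4796476, scored 2.06 and 1.94 and stood between 2 stretches that scored still higher, with means of 2.26 and 2.12. Among all 5563 short stretches these 5 members ranked 10, 31, 33, 35 and 40 by mean score. Members were 16.6% of the short stretches, so these few ranks do not show whether members are scarce among the strongest.

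By arm, members made up the largest share of short stretches on 3R and the smallest on X. There were 261 members on 3R (18.8% of its short stretches), 214 on 2R (17.7%), 189 on 3L (16.6%), 145 on 2L (15.2%) and 114 on X (13.0%). Per Mb this was 9.35 on 3R, 10.1 on 2R, 7.70 on 3L, 6.30 on 2L and 5.08 on X. The density of all shared stretches ran from 43.1 per Mb on X to 62.6 on 2R, and gaps are shorter where stretches are denser. Members with both gaps broken were 7.21% of the short stretches on X and 8.27% to 9.72% on the other arms. Among the 50% of regions with the highest scores the share did not set X apart, with 7.88% on X and 7.98% on the 4 autosome arms.

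Members scored above the other short stretches of their own arm on 4 arms in both replicates. The medians on X were 1.02 and 1.03 for members in replicates 1 and 2, against 0.95 and 0.88 for the others. On 2L they were 0.86 and 0.87 for members, against 0.75 and 0.67 for the others. On 3R they were 0.87 and 0.77 for members, against 0.74 and 0.70 for the others. On 2R they were 0.77 and 0.76 for members, against 0.75 and 0.73 for the others. On 3L the replicates went opposite ways, with 0.72 for members against 0.76 for the others in replicate 1, and 0.70 for members against 0.69 for the others in replicate 2.

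Along the arms, members were dense where all shared stretches were dense. Each arm was cut into 10 equal parts from the telomere. With the 5 arms together, the first part held 10.7 members per Mb and the last, next to the centromere, held 4.54. All shared stretches had 64.5 per Mb in the first part and 32.3 in the last. The share of short stretches that were members was between 13.7% and 18.8% in the 10 parts, 18.8% in the first and 14.8% in the last. The last part of 3R held 34 members among 146 short stretches (23.3%). On the other arms the last part held 2 to 7 members among 46 to 62 short stretches, or 3.23% to 13.7%. With each arm cut into 3 parts, the share was highest at the telomere side on 2L, 2R and 3L, and at the centromere side on X and 3R.

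**Figure D5:**
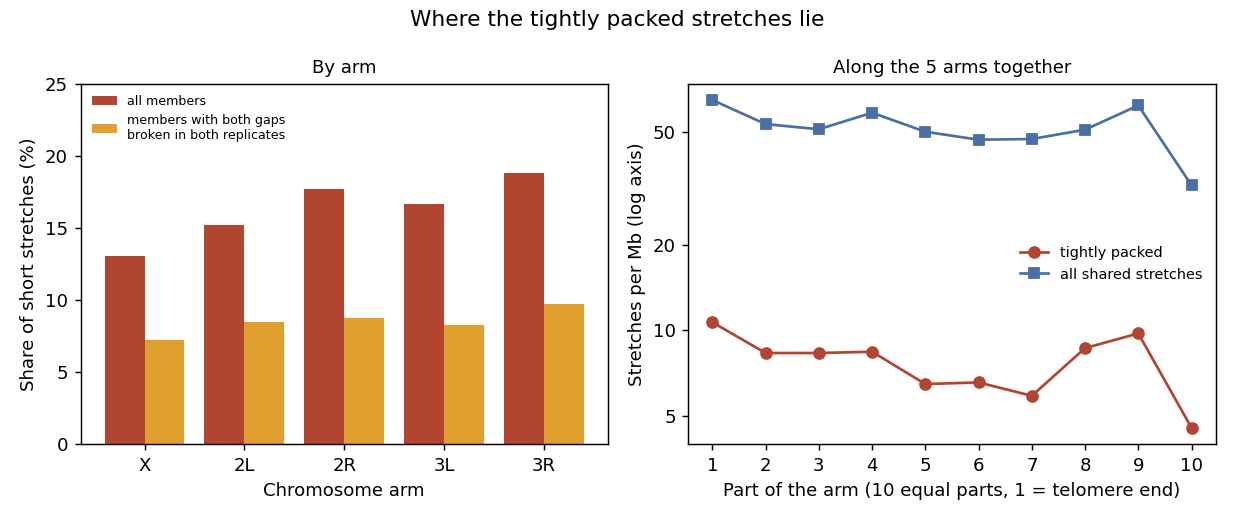
Left, share of short stretches that are tightly packed (vertical axis, percent) by chromosome arm, for all members and for those with both gaps broken in both replicates. Right, members and all shared stretches per Mb (vertical log axis) in 10 equal parts of the arm from the telomere; the share of members is highest on 3R with 18.8% and lowest on X with 13.0%, and both densities are lowest in the last part.

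Members were spread over most of the genome. Of 117 full windows of 1 Mb, 5 held no member, the median window held 7, and the middle 50% held 4 to 11. The windows with the most members were on 2R from 3000001 to 4000000 with 21 of 92 short stretches, on 3R from 7000001 to 8000000 with 21 of 63, and on 3R from 1000001 to 2000000 with 19 of 63. Scores in these windows differed in direction. In the window on 2R members had medians of 0.63 and 0.86 in replicates 1 and 2, against 0.84 and 0.79 for the other short stretches. In the window on 3R from 7000001 members had 0.93 and 0.81, against 0.79 and 0.81 for the others. In that on 3R from 1000001 members had 1.14 and 1.06, against 0.95 and 0.87 for the others. The 12 windows with the most members held 21.4% of the members found in windows and 14.6% of the short stretches. They were picked by their number of members, so the larger share of members does not show concentration. In 100 windows with at least 3 members and 3 others, the median score of members was higher than that of the others in 58 for replicate 1, in 63 for replicate 2 and in 45 for both.

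Broad stretches of 5000 bp or more were closer to members than to other short stretches. The nearest one was a median of 35.5 kb from a member, against 59.4 kb for the other short stretches. Within 20 kb of a broad stretch lay 39.2% of members and 26.2% of the others. As the next stretch along the arm, a broad one stood beside 17.3% of members and 16.8% of the others, which is nearly the same. Distances in a dense neighbourhood are shorter for every kind of stretch, so part of this difference may follow from the rule, which was not tested.

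The stretches nearest the limits of the rule are given as they stand. The members with the largest gaps, 2993, 2995 and 2995 bp, scored 1.63, 0.80 and 0.51 in replicate 1 and 1.33, 0.85 and 0.61 in replicate 2. The short stretches just outside, with gaps of 3003, 3003 and 3004 bp, scored 0.71, 0.58 and 1.33 in replicate 1 and 0.58, 0.59 and 1.30 in replicate 2. The longest members, of 4921, 4986 and 4993 bp, scored 1.16, 0.64 and 1.04 in replicate 1 and 1.33, 0.77 and 1.00 in replicate 2. Packed stretches just above the length limit, of 5051, 5068 and 5073 bp, scored 0.73, 1.69 and 1.91 in replicate 1 and 0.78, 1.78 and 1.59 in replicate 2.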

How the data were processed

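The submitters' processing notes name Bowtie 0.12.7 as the read mapper, and, per the file headers, positions follow release 5 of FlyBase. No source used here gives the peak caller, its cutoff, the matching input or how the replicate-set list was made. The deposited lists give a start, an end and a score per region. The scale of the score was inferred from ties: in each list the 40 scores that recur most often have 780 differences, which were matched to logs of whole-number ratios (denominator at most 5000, tolerance 1e-11, relative). With log2, replicate 1 gave 700 matches, replicate 2 gave 768 and the replicate set 763, and other bases gave at most 1. The scores are the authors' own.

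The replicate lists were intersected base by base and abutting stretches were merged, with Python 3.11.15, pandas 2.3.3 and numpy 2.4.6. Positions were read as 1-based and inclusive, which is uncertain by 1 bp. A gap is the number of bases between 2 stretches. The score of a stretch in a replicate is the mean of its regions' scores, weighted by bases covered. The length-matched difference is the difference of medians in 8 length classes, weighted by the number of members. The rule was tested on simulated data. Arms were oriented with the telomere at the low end for X, 2L and 3L and at the high end for 2R and 3R. The release of the reference table at hand is 6, so it was not used. The regions named are the 5 runs with the most members, the 5 members with the highest mean score, the 3 stretches on each side of each limit and the 3 windows with the most members. The runs with every gap broken, and the comparisons of the 2 kinds of members, were added after their values were seen. Members and lists were chosen with earlier results of these data known. Alternatives used only the highest-scoring 50% of regions, other limits on gap, length and shared sequence, each list alone, and joined stretches.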

Additional observations from a re-analysis of the deposited data

How the results depend on the processing

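No alternative involves a test, and a value is called moved when it changed by more than the SD between the replicates (counts, by over 1.5 times). The causes were not tested. No paired analysis was possible because the inputs have no list used here and no groups were compared. The number of members was 207 among the 50% of regions with the highest scores, 2586 in the replicate-set list, 582 with a gap limit of 2000 bp and 490 after joining stretches of 1 region, and 904 to 1305 with each replicate alone. In this order of settings, the share of short stretches was 7.96%, 30.1%, 10.5% and 10.7%. It was 22.6% with a gap limit of 4000 bp, 14.3% when a stretch had to hold 50% of the shorter region, and 16.1% to 19.3% with 1 replicate. Runs of 3 or more numbered 15, 310, 42 and 28 in the first 4 settings, 143 at 4000 bp, and 73 to 135 with 1 replicate.

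The median length difference of 19 bp between members and other short stretches had no stable direction. It was -79 bp among the highest scores, -34 bp in the replicate-set list and -11 bp at a gap limit of 2000 bp. It was 2 bp at 4000 bp, 14.5 bp with a length limit of 4000 bp, 76 bp without a length limit, 95.5 bp without stretches under 200 bp, 155.5 bp with the 50% overlap, 179 bp after joining, and 142 to 146 bp with 1 replicate.

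The score differences in replicates 1 and 2 stayed above 0 in every alternative that gives them. In replicates 1 and 2 they were 0.034 and 0.13 among the highest scores, 0.11 and 0.11 with the 50% overlap, 0.041 and 0.043 at a gap limit of 2000 bp, 0.035 and 0.038 at 4000 bp, and 0.21 and 0.19 after joining. In replicate 1 the difference was 0.082 without stretches under 200 bp and 0.067 without a length limit. In the single lists it was 0.045 in replicate 1 and 0.0092 in replicate 2. The length-matched differences were 0.052 and 0.12 among the highest scores, 0.044 and 0.088 after joining, and 0.0046 and 0.0011 in the single lists. The replicate-set list has no replicate scores. By its own scores the direction was reversed, with a median of 0.387 for its tightly packed short regions against 0.406 for its other short regions. The share on X minus that on the 4 autosome arms, -4.21 percentage points, was -0.100 among the highest scores, -0.756 in the replicate-set list, -5.59 at a gap limit of 4000 bp, -2.57 after joining, and -4.27 to -2.41 with 1 replicate.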
